A study of Mus musculus with 8 samples.

Results

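The nuclear genes of the respiratory chain, the set of mitochondrial inner membrane complexes that carries electrons to oxygen and makes ATP, were compared between Dnmt3a KO and WT bone-marrow-derived macrophages. Members were chosen by gene symbol: Nduf followed by a, b, c, s or v and a digit for complex I, Sdha to Sdhd for complex II, Uqcr for complex III, Cox4 to Cox8 for complex IV and Atp5 for complex V, with at least 100 read counts over all libraries. Of 26667 genes in the count table, 85 had such a symbol and 77 reached that limit, 36 in complex I, 4 in complex II, 7 in complex III, 14 in complex IV and 16 in complex V. All 77 passed the filter on low counts and were among the 12507 genes tested. A symbol is not proof of a subunit: Cox4nb is an older name of Emc8, part of a complex of the endoplasmic reticulum. Atp5sl is an older name of Dmac2, and Atp5s of Dmac2l. Cox7a2l is known for a part in joining complexes into supercomplexes, and whether it does so in these cells was not tested. Ndufa4 is now usually placed in complex IV.

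The cells were C57BL/6 marrow cells grown with 30 ng/ml of the growth factor M-CSF and 10% serum, which yields macrophages, and were taken at day 8 to 10. There were 4 Dnmt3a KO libraries, lacking a de novo DNA methyltransferase, and 4 WT libraries, all of polyadenylated RNA. The labels name neither the allele or Cre line behind the KO nor the age or sex of the mice, and do not say whether libraries came from separate mice, so each p-value speaks of the spread between libraries, which may be technical. Library totals ran from 12614006 to 28502631 counts. KO libraries are numbered 9 to 12 and WT libraries 1 to 4, so genotype and library order cannot be told apart. Dnmt3a itself had 29.1, 37.6, 35.6 and 35.4 CPM (read counts per gene at a common library size) in KO replicates 1 to 4, against 149.8, 155, 168 and 170.2 CPM in WT replicates 1 to 4, a log2 fold change of -2.22 ± 0.11 (SE; edgeR quasi-likelihood adjusted p 1.08e-06). Macrophage markers summed over 12 genes to 12454 to 16652 CPM in KO and 11764 to 13062 CPM in WT. Not all of them were abundant. Their means ran from 7.13 CPM in KO and 4.88 CPM in WT for Mertk to 7698 and 5619 CPM for Lyz2, the largest part of the sum. WT replicate 1 stood apart from the other libraries and is treated with the results below.

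The chain takes electrons from NADH at complex I and from succinate at complex II, passes them through ubiquinone, complex III and cytochrome c to oxygen at complex IV, and complexes I, III and IV pump protons that drive ATP synthesis by complex V. A few subunits of complexes I, III, IV and V are encoded in mitochondrial DNA; those were not analysed here. In macrophages the balance between this chain and glycolysis changes with activation, and reverse electron flow at complex I is a known source of reactive oxygen. Promoters of many chain genes are known to carry binding sites for NRF1, for ETS factors such as GABP, and for YY1.

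Promoter sequence is shown for 3 members whose levels stand out in the results below, all of complex I or IV: Ndufs5, the member with the lowest fold change, and Cox6a1 and Ndufb7, which were high in WT replicate 1. Ndufb7 was chosen after its values were seen. The 250 bases before the annotated start are given 5′ to 3′ on the strand of the gene (RefSeq, GRCm38.p6), for Ndufs5 at chr4:123718187-123718436 on the minus strand, for Cox6a1 at chr5:115348959-115349208 on the minus strand and for Ndufb7 at chr8:83566508-83566757 on the plus strand. Capitals mark exact matches, on either strand, to the NRF1 core CGCATGCG, the ETS core CCGGAAG, the YY1 core AAGATGGCG or the TATA box TATAAA; none of these letter strings lies inside another.
Ndufs5: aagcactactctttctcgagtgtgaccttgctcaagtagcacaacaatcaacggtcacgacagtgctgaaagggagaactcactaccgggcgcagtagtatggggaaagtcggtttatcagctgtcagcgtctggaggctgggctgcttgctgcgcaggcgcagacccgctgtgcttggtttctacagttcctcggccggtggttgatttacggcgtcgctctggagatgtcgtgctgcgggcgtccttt
Cox6a1: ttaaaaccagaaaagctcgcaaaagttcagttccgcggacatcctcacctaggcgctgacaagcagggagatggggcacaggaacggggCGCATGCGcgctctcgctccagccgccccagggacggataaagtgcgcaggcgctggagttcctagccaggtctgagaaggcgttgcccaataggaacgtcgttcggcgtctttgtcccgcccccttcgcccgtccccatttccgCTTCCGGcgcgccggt
Ndufb7: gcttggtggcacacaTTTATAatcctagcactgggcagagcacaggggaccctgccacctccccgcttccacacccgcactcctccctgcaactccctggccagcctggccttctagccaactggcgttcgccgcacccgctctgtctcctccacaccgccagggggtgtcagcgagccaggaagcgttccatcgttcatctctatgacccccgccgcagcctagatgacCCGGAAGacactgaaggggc

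The Ndufs5 stretch held no exact match to the 4 letter strings. Other forms of these binding sites were not searched for in any stretch, so one without a match may still hold a site. The Cox6a1 stretch held the NRF1 core 161 bases before the start and the ETS core on the opposite strand 16 bases before it. In Ndufb7 the ETS core began 20 bases and the TATA box, on the opposite strand, 235 bases before the start. For 64 of the 77 members RefSeq gave 70 start windows of 250 bases before to 50 bases after a start. Members' windows held a median of 19.5 CpG pairs, against 7 over all 32851 windows of the table. Their median GC content was 58%, against 52.67%. All windows together cover 27025 genes and were not limited to the 12507 tested genes or matched for GC content. Whether the shares below are particular to chain genes was therefore not tested. The NRF1 core was in 10% of member windows, against 1.87% of all windows, and the ETS core in 21.4%, against 8.86%. The YY1 core was in 12.9% of member windows, against 1.40% of all, and the TATA box in 8.57%, against 13.6%. These are matches of letters and not evidence of binding.

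No member passed the test between Dnmt3a KO and WT (0 of 77 by the edgeR quasi-likelihood test, with p adjusted by Benjamini-Hochberg over 12507 genes and a threshold of 0.05), where 1.61% of all tested genes did, 152 higher and 49 lower. At an unadjusted p under 0.05 there was 1 member, Ndufs5, against 12.7% of all tested genes. DESeq2 called 0 members (0 at an unadjusted p under 0.05) and 3.79% of its genes, and limma-voom called 0 members (2 at an unadjusted p under 0.05, Ndufs5 and Ndufb4) and 1.51%. The authors' deposited table, which gives WT over KO, also lists 0 of 77 members under an adjusted p of 0.05, with 3.15% of its 16108 genes under it and Ndufa13 lowest among members at 0.462. The 4 KO libraries all lay on one side of the 4 WT libraries for 1 member, again Ndufs5, against 9.41% of all tested genes.

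The 95% intervals say how large a difference the libraries leave room for. With all 8 libraries the interval of the log2 fold change lay within 0.5 of 0, in either direction, for 43 of 77 members, against 5921 of 12507 tested genes. For the other 34 members it reached past 0.5, so a change of that size could neither be called nor set aside at this spread. Without WT replicate 1 the interval lay within 0.5 of 0 for 71 of 77 members, against 7959 of 12672 tested genes. In bulk RNA a change in the make-up of the culture and a change per cell cannot be told apart.

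With all 8 libraries 66 of 77 members had a negative fold change, against 53.1% of all tested genes. Without WT replicate 1 only 24 members did, against 49.8% of all tested genes. The median log2 fold change was -0.15 in complex I, -0.15 in complex II, -0.07 in complex III, -0.12 in complex IV and -0.10 in complex V, against -0.02 over all tested genes. Without WT replicate 1 the medians were 0.02, -0.05, 0.08, 0.06 and 0.04 in complexes I to V, against 0.0010 over all tested genes. The median over the 77 members was -0.13 with and 0.03 without that library. Without it 0 of 77 members were called, against 3.82% of 12672 tested genes, and 1 (Ndufs5) had an unadjusted p under 0.05, against 15.9%. DESeq2 and limma-voom without it also called 0 members, against 5.30% and 3.46% of all genes. These comparisons share their libraries and are not independent.

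**Figure D1:**
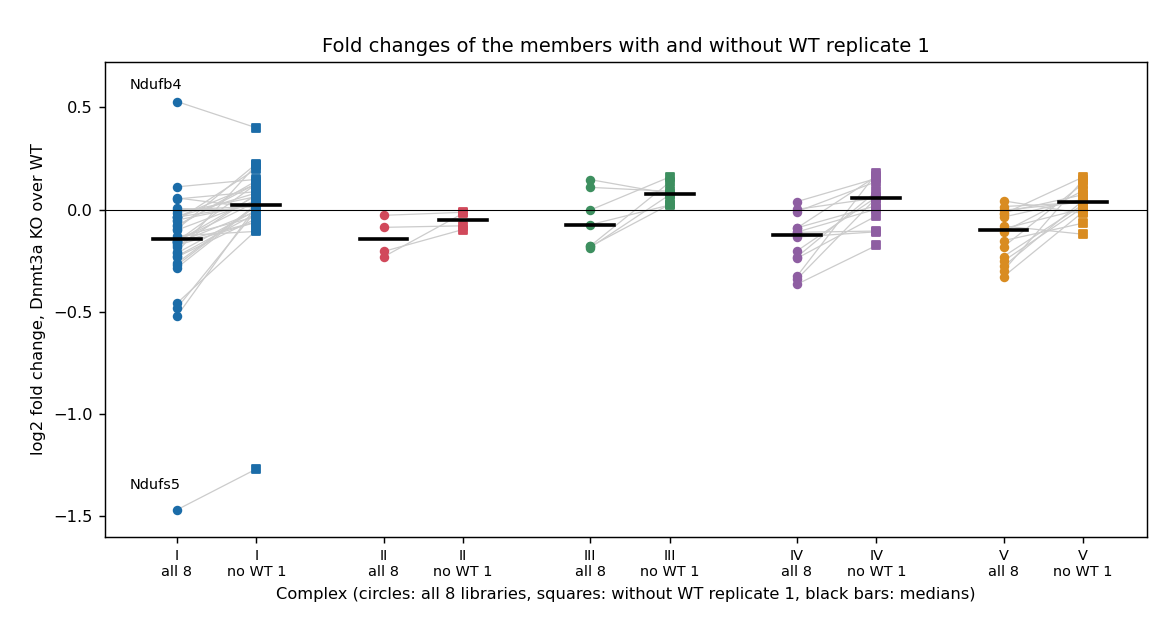
Each point is the log2 fold change, Dnmt3a KO over WT, of 1 of the 77 members, by complex, with all 8 libraries (circles) and without WT replicate 1 (squares); grey lines join the same gene and black bars are medians. The medians lie between -0.15 and -0.07 with all libraries and between -0.05 and 0.08 without WT replicate 1, and Ndufs5 lies far below the rest in both.

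Summed over a complex, the levels put WT replicate 1 above every other library in all 5 complexes. Complex I summed to 2268, 2163, 2054 and 2234 CPM in KO replicates 1 to 4, against 3266, 2271, 1969 and 2155 CPM in WT replicates 1 to 4. Complex IV summed to 1563, 1419, 1404 and 1530 CPM in KO, against 2477, 1497, 1317 and 1419 CPM in WT. The KO values of complex I lie inside the range of the other 3 WT libraries, and in complex IV KO replicates 1 and 4 lie above it. The other sums were closer together: complex II had 509.8 ± 23.8 CPM in KO, against 554 ± 67.3 CPM in WT (SD, n = 4 each). Complex III had 734 ± 14.4 CPM in KO, against 774.5 ± 148 CPM in WT. Complex V had 3131 ± 164 CPM in KO, against 3262 ± 452 CPM in WT. Set against WT replicates 2 to 4 alone, KO replicates 1, 2 and 4 lay above the range in complex III. KO replicates 1 and 2 lay above it in complex V, and KO replicate 3 lay below it in complex II. WT replicate 1 exceeded the mean of the other WT libraries 1.53-fold in complex I, 1.24-fold in complex II, 1.41-fold in complex III, 1.76-fold in complex IV and 1.28-fold in complex V. KO over the mean of WT replicates 2 to 4 came to 1.02, 0.975, 1.05, 1.05 and 1.03 in complexes I to V.

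**Figure D2:**
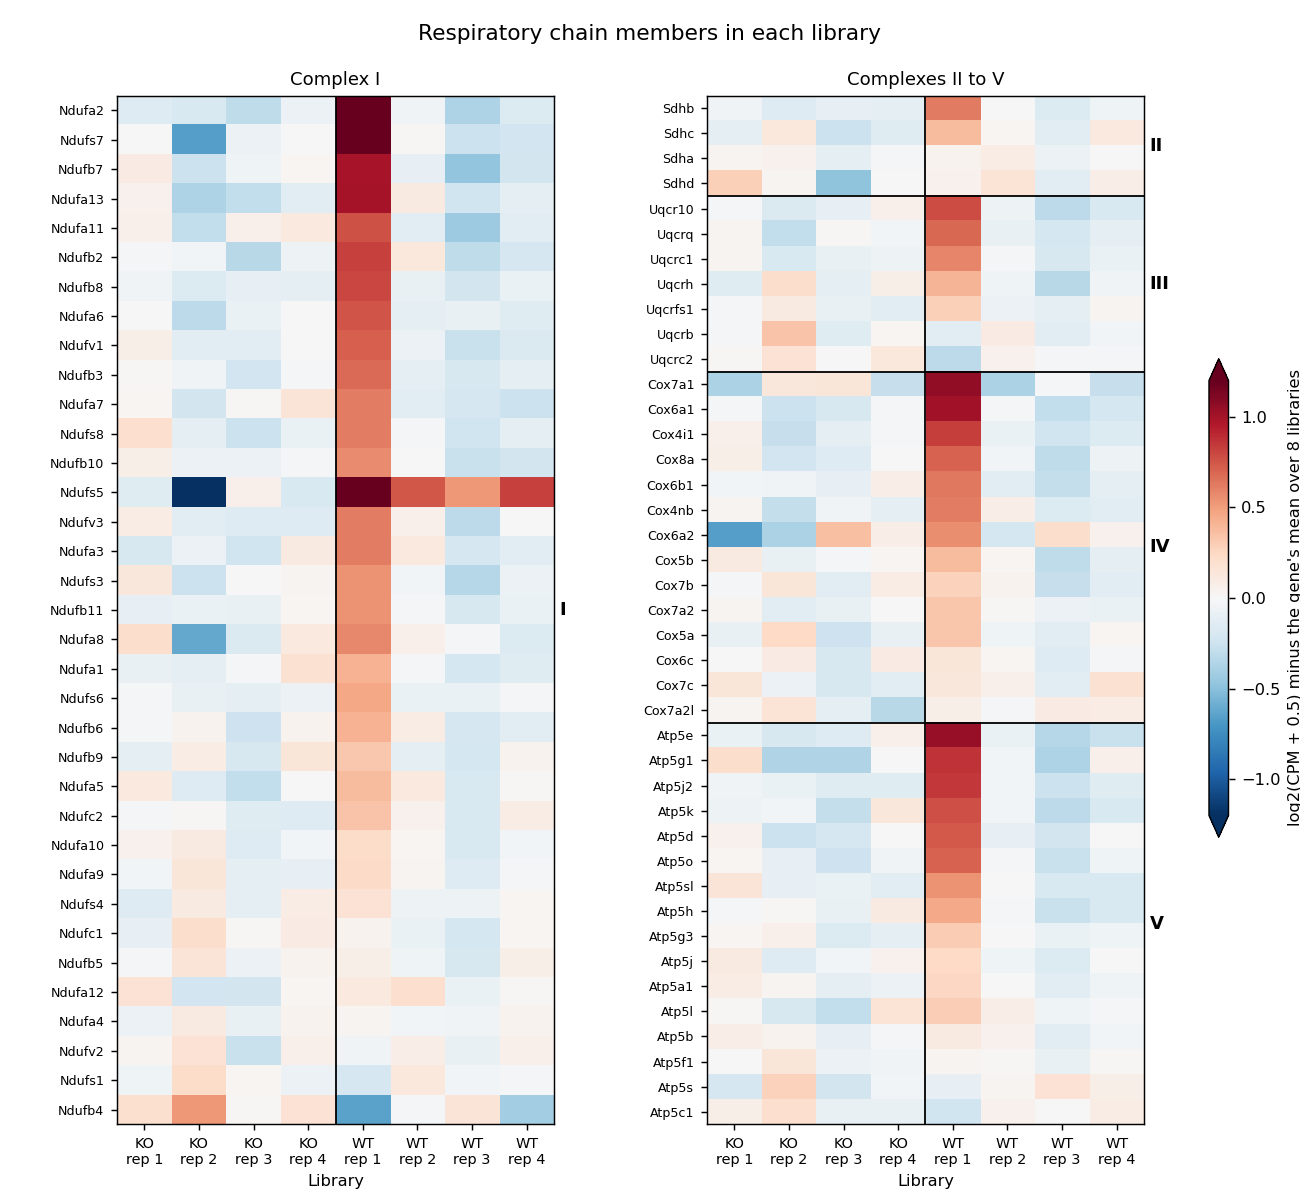
Colour gives log2(CPM + 0.5) of each member shown minus the gene's mean over the 8 libraries, with complex I on the left and complexes II to V on the right, Dnmt3a KO columns left of WT columns, and members ordered within a complex by how far WT replicate 1 lies above the other WT libraries. The column of WT replicate 1 is red for most members, Ndufb4 is lowest there, and Ndufs5 is blue in KO replicate 2, beyond the end of the scale.

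In complex I the genotypes overlapped in each catalytic core subunit given by library. Ndufv1 binds the flavin that takes electrons from NADH, and had 104, 89.9, 90.3 and 98.7 CPM in KO replicates 1 to 4, against 163, 94.0, 82.2 and 87.5 CPM in WT replicates 1 to 4. Its KO values overlap WT replicates 2 to 4, and WT replicate 1 lies above all others. The log2 fold change was -0.16 ± 0.19 (SE) with all libraries and 0.13 ± 0.08 without WT replicate 1, with edgeR adjusted p of 0.787 and 0.528. Ndufs1, the largest subunit of the electron input arm, had 99.03, 119.5, 104 and 97.6 CPM in KO, against 89.4, 112, 101 and 102 CPM in WT. Here WT replicate 1 was the lowest library and the genotypes overlap (log2 fold change 0.06 ± 0.11).

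Ndufs7 carries the last iron-sulfur cluster before ubiquinone, and it varied most between libraries among the 3 core subunits given by library. It had 57.5, 35.98, 54.6 and 57.3 CPM in KO, against 132, 57.8, 47.97 and 48.8 CPM in WT. KO replicate 2 was below all other libraries and WT replicate 1 above all others. Its log2 fold change of -0.48 ± 0.30 (adjusted p 0.563, edgeR) was -0.00 ± 0.14 without WT replicate 1. The core subunits Ndufv2, Ndufs3 and Ndufs8 had log2 fold changes of 0.01, -0.08 and -0.16 with all libraries and of -0.01, 0.13 and 0.07 without WT replicate 1.

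Ndufs5, an accessory subunit on the intermembrane space side of complex I, was the one member whose genotypes did not overlap. It had 82, 6, 91 and 105 counts in KO replicates 1 to 4, against 297, 186, 168 and 360 counts in WT replicates 1 to 4. That is 6.17, 0.292, 7.17 and 5.98 CPM in KO, against 18.9, 11.8, 10.01 and 12.4 CPM in WT. Every KO library was below every WT library, and KO replicate 2, with 6 counts in the second largest library, was far below the other KO libraries. The mean was 4.902 ± 3.12 CPM in KO, against 13.3 ± 3.87 CPM in WT (SD, n = 4 each). The log2 fold change was -1.47 ± 0.55 (SE). The unadjusted p was 0.0215 and the adjusted p 0.277 (edgeR), so the difference failed the correction over all genes. Without WT replicate 1 the log2 fold change was -1.27 ± 0.48 (adjusted p 0.193), and without KO replicate 2 it was -1.04 ± 0.23 (adjusted p 0.0857). With limma-voom it was -2.31 ± 0.73 (adjusted p 0.182), and 0.0895 was the adjusted p of limma-voom without WT replicate 1. With no filter on low counts edgeR's adjusted p was 0.0386, and 1.82% of 21980 genes were then called. The authors' deposited table gives a log2 fold change of 1.44 with an SE of 0.787, WT over KO, and an adjusted p of 0.473.

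The transcript of Ndufs5 shares 31.1% of its 50-base stretches with BC002163, a processed copy on chromosome 16, so reads could be split between them. Ndufs5 lies on chromosome 4 from 123712710 to 123718202 (mm10, minus strand). BC002163 had 274, 400, 275 and 429 counts in KO, against 498, 317, 319 and 595 counts in WT. At 21.5 ± 2.12 CPM in KO, against 22.9 ± 5.91 CPM in WT, it overlapped between genotypes (log2 fold change -0.08, adjusted p 0.881, edgeR). Summed before the fit, the pair had 26.8, 19.8, 28.9 and 30.4 CPM in KO, against 50.5, 31.97, 29.02 and 33.02 CPM in WT. KO replicate 4 then lay above WT replicate 3. The log2 fold change of the sum was -0.45 ± 0.19, with an unadjusted p of 0.0381 and an adjusted p of 0.356 (edgeR). Whether reads moved between the gene and its copy was not tested. KO replicate 2 had 400 counts on the copy beside its 6 on the gene. Over the chain, 27 of 77 members shared at least 10% of their 50-base stretches with another gene and 32 shared none.

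**Figure D3:**
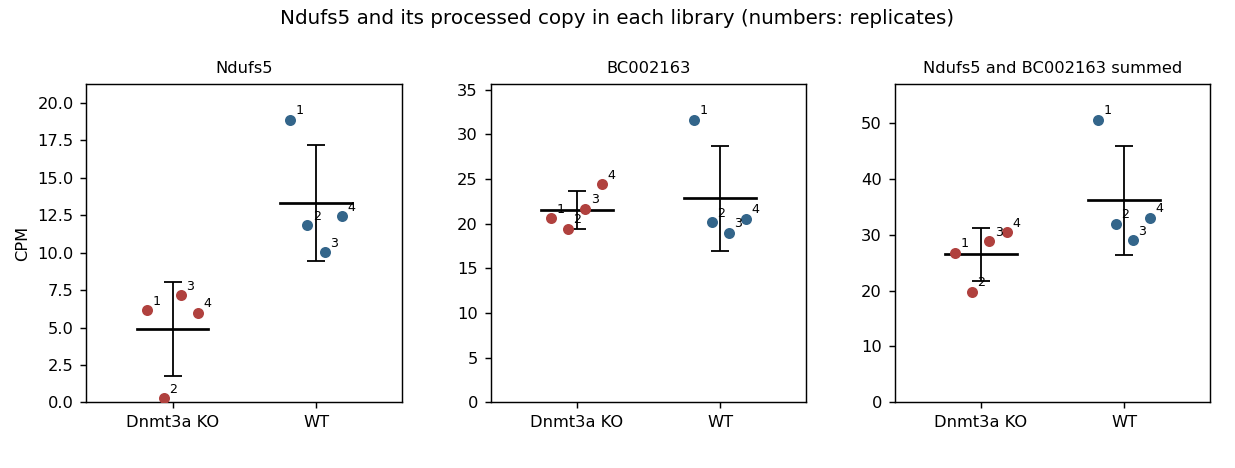
CPM of Ndufs5, of its processed copy BC002163 and of their sum in each of 4 Dnmt3a KO and 4 WT libraries; small numbers are replicates, bars are means with SD. Ndufs5 lies at 7.17 CPM or below in KO and at 10.0 CPM or above in WT, while the copy overlaps between genotypes.

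At the other end of complex I was Ndufb4, an accessory subunit of the proton-pumping arm with few counts (369 in all). It had 3.01, 3.895, 2.601 and 2.96 CPM in KO, against 1.46, 2.54, 2.92 and 1.798 CPM in WT. KO replicates 1, 2 and 4 were above all WT libraries and KO replicate 3 was inside their range. The log2 fold change was 0.53 ± 0.27 (adjusted p 0.465, edgeR), and 37.0% of its 50-base stretches occur in other genes. The other 34 members of complex I had log2 fold changes between -0.52 and 0.11 with all libraries and between -0.11 and 0.22 without WT replicate 1. Those lowest with all libraries were Ndufa2 (-0.52), Ndufs7 and Ndufa13 (-0.46), each more than 2-fold higher in WT replicate 1 than in the other WT libraries. Ndufa13, also known as a partner of STAT3, had 84.4, 63.0, 66.2 and 74.5 CPM in KO, against 164, 88.1, 69.2 and 74.99 CPM in WT, and was chosen after its values were seen.

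The accessory subunits of complex I went with WT replicate 1 to different degrees. WT replicate 1 exceeded the mean of the other WT libraries 2.81-fold for Ndufa2, 2.39-fold for Ndufb7, 2.12-fold for Ndufa13, 2.005-fold for Ndufa11, 1.94-fold for Ndufb2 and 1.91-fold for Ndufb8. Between 1.42-fold and 1.86-fold were Ndufa6, Ndufa7, Ndufb3, Ndufb10, Ndufv3, Ndufa3, Ndufb11, Ndufa8, Ndufa1, Ndufs6 and Ndufb6. Ndufb9, Ndufa5, Ndufc2, Ndufa10, Ndufa9, Ndufs4, Ndufc1, Ndufb5, Ndufa12 and Ndufa4 were between 1.03-fold and 1.33-fold. Ndufa4 was nearly identical between genotypes, at 122 to 139 CPM in KO and 126 to 133 CPM in WT. The 95% interval of its log2 fold change ran from -0.19 to 0.19.

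In complex II, the succinate dehydrogenase that also serves the citric acid cycle, the genotypes overlapped in all 4 subunits. Sdha, its flavin subunit, had 280.5, 285, 254 and 270.5 CPM in KO, against 284, 292, 261 and 273 CPM in WT. The genotypes overlap, WT replicate 1 is not apart, and the log2 fold change was -0.03 ± 0.09. Sdhb, the iron-sulfur subunit, had 139, 128, 133 and 132 CPM in KO, against 219.6, 142, 127 and 137 CPM in WT, with WT replicate 1 alone above the rest. Its log2 fold change was -0.23 ± 0.16 with all libraries and -0.02 ± 0.08 without WT replicate 1. Of the membrane anchors, Sdhc had a log2 fold change of -0.20 ± 0.13 (adjusted p 0.556, edgeR).
Sdhd, the other anchor, had only 157 counts, the fewest of any member, with 1.43, 1.12, 0.631 and 1.08 CPM in KO, against 1.14, 1.27, 0.953 and 1.18 CPM in WT. Per kilobase of transcript Sdhd was at 0.865 CPM in KO and 0.921 CPM in WT replicates 2 to 4, while Sdhc was at 32.6 CPM in KO and 34.99 CPM in those WT libraries. No other annotated gene shares a 50-base stretch with Sdhd, and what set its low count was not tested.

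In complex III, which passes electrons from ubiquinol to cytochrome c, the members split by their level in WT replicate 1. Uqcrc1, a core protein, had 208, 179, 191 and 195 CPM in KO, against 305, 201, 178 and 192 CPM in WT. Its partner Uqcrc2 had 141, 157, 138 and 152 CPM in KO, against 112, 144, 138 and 137 CPM in WT. WT replicate 1 was thus the highest library for Uqcrc1 and the lowest for Uqcrc2, although the proteins stand in the complex together. The log2 fold changes were -0.18 ± 0.16 for Uqcrc1 and 0.15 ± 0.10 for Uqcrc2, and 0.03 ± 0.08 and 0.08 ± 0.08 without WT replicate 1. Uqcrfs1, the Rieske iron-sulfur protein, had 102, 111, 96.9 and 94.1 CPM in KO, against 126, 98.5, 94.9 and 106 CPM in WT, a log2 fold change of -0.07 ± 0.11. Uqcrq, a small subunit, had 130.5, 104, 129 and 125 CPM in KO, against 207, 119.9, 110.0 and 119 CPM in WT. Its log2 fold change of -0.19 ± 0.19 was the lowest of the complex with all libraries and 0.07 ± 0.09 without WT replicate 1. Uqcr10, Uqcrh and Uqcrb had log2 fold changes of -0.18, -0.0025 and 0.11 with all libraries, and of 0.13, 0.16 and 0.09 without WT replicate 1. All 7 members were on the positive side without that library, at most 0.16, and none passed the test.

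Complex IV, cytochrome c oxidase, had the largest summed excess in WT replicate 1. Cox4i1, the regulatory subunit that binds ATP, had 539, 428, 479 and 512 CPM in KO, against 916, 488, 436 and 459.6 CPM in WT. The KO values overlap WT replicates 2 to 4, and WT replicate 1 was 1.99-fold above the mean of the others. The log2 fold change was -0.23 ± 0.21 with all libraries and 0.09 ± 0.09 without WT replicate 1. In the annotation 9.9% of its exon bases also belong to Cox4nb on the other strand, and the library kit marks no strand. Cox5a, a nuclear subunit on the matrix side, had 104, 130.1, 92.4 and 104 CPM in KO, against 138, 106, 101 and 112 CPM in WT, and a log2 fold change of -0.09 ± 0.13. Cox7b had the highest fold change of the complex, with 104, 116, 96.4 and 112 CPM in KO, against 127, 108, 86.8 and 95.4 CPM in WT (0.04 ± 0.13, and 0.15 ± 0.09 without WT replicate 1).

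Several complex IV subunits exist as a ubiquitous form and a form known from heart and skeletal muscle, and the ubiquitous forms were the higher ones per kilobase. Cox6a1, the ubiquitous form, had 249, 212, 222 and 250.1 CPM in KO, against 508, 250.2, 207 and 218 CPM in WT. Its muscle partner Cox6a2 had 0.752, 1.02, 2.05 and 1.59 CPM in KO, against 2.42, 1.21, 1.79 and 1.56 CPM in WT. Per kilobase Cox6a1 stood at 409 CPM in KO and 394 CPM in WT replicates 2 to 4, and Cox6a2 at 1.99 CPM in KO and 2.23 CPM in those WT libraries. The log2 fold change was -0.34 ± 0.25 for Cox6a1 and -0.37 ± 0.36 for Cox6a2, the lowest of the complex, and neither passed the test.
Cox7a2, the ubiquitous form of another subunit, had 9.25, 8.18, 8.44 and 8.996 CPM in KO, against 11.5, 9.09, 8.58 and 8.51 CPM in WT. The muscle form Cox7a1 had 2.41, 3.65, 3.71 and 2.62 CPM in KO, against 7.44, 2.42, 3.22 and 2.63 CPM in WT, with WT replicate 1 2.65-fold above the mean of the other WT libraries. Cox7a2l, a related gene, had 70.3, 76.97, 63.4 and 54.3 CPM in KO, against 71.9, 67.9, 73.5 and 72.95 CPM in WT, where WT replicate 1 was not apart. Per kilobase Cox7a2 stood at 13.2 CPM in KO and 13.2 CPM in WT replicates 2 to 4, and Cox7a1 at 7.88 CPM in KO and 7.01 CPM in those WT libraries. Their log2 fold changes were -0.11 ± 0.15 for Cox7a2, -0.33 ± 0.36 for Cox7a1 and -0.11 ± 0.11 for Cox7a2l. The other members Cox5b, Cox6b1, Cox6c, Cox7c, Cox8a and Cox4nb had log2 fold changes from -0.24 to 0.00. Without WT replicate 1 the genotypes of 2 members did not overlap, Ndufs5 and Cox6b1, against 14.9% of all tested genes. Cox6b1, which lies near the cytochrome c site, had 134 to 152 CPM in KO, against 118 to 132 CPM in WT replicates 2 to 4 and 223 CPM in WT replicate 1. It was chosen after its values were seen, and its log2 fold change without WT replicate 1 was 0.16 ± 0.08 (adjusted p 0.3402, edgeR).

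In complex V, the ATP synthase, the genotypes overlapped in every member. Atp5b, the catalytic beta subunit, had 1109.6, 1085, 986 and 1033 CPM in KO, against 1135, 1094, 967 and 1027 CPM in WT. The genotypes overlap with WT replicate 1 only slightly above the rest, and the log2 fold change was -0.0032 ± 0.092 (SE), with an interval from -0.20 to 0.20. Atp5a1, the alpha subunit, had 939, 904, 814 and 837 CPM in KO, against 1047, 879.9, 804 and 853 CPM in WT, a log2 fold change of -0.04 ± 0.11. Atp5c1, the gamma subunit that forms the rotating stalk, had 161, 177, 145 and 145 CPM in KO, against 131, 159.5, 155 and 164 CPM in WT, and here WT replicate 1 was the lowest library (0.04 ± 0.11).
The c subunit of the rotor is made from several genes that encode the same mature protein. Atp5g3 had 236, 243, 207 and 216 CPM in KO, against 286, 233, 219 and 224 CPM in WT. Atp5g1 had 19.02, 12.6, 12.6 and 16.3 CPM in KO, against 30.4, 16.02, 12.6 and 17.1 CPM in WT, and its log2 fold change of -0.33 ± 0.25 (adjusted p 0.648, edgeR) was the lowest of complex V; it was -0.01 ± 0.16 without WT replicate 1. The remaining members Atp5d, Atp5e, Atp5f1, Atp5h, Atp5j, Atp5j2, Atp5k, Atp5l, Atp5o, Atp5s and Atp5sl had log2 fold changes from -0.30 to 0.02. WT replicate 1 exceeded the mean of the other WT libraries 2.43-fold for Atp5e, the small epsilon subunit, and 1.04-fold for Atp5f1, a stalk subunit.

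Levels per kilobase of transcript spanned a wide range within each complex. They depend on the transcript model chosen, which was 4715 bases long for Atp5g1 and 4371 bases for Ndufb2. Reads could also be split with other genes. Atp5l shares 84.8% and Cox7c 53.0% of its 50-base stretches with other genes, while Sdhd, also low, shares none. How far this set the levels was not tested. The median over members was 57.6 CPM per kilobase in KO, against 57.5 in WT replicates 2 to 4, in complex I. It was 63.2 in KO, against 65.0 in those WT libraries, in complex II, and 80.2 in KO, against 76.4 in WT, in complex III. In complex IV it was 84.3 in KO, against 81.6 in WT, and in complex V 114.5 in KO, against 111.1 in WT. The highest members were Cox4i1 at 639.8 CPM per kilobase in KO and 603 in WT, and Atp5b at 549.8 in KO and 537 in WT. The ratio of the KO mean to the mean of WT replicates 2 to 4 was between 0.8 and 1.2 for 75 of 77 members, all but Ndufs5 at 0.429 and Ndufb4 at 1.29. With all 4 WT libraries in the WT mean it was in that range for 68 of 77. Then 8 were below it, Ndufs5 at 0.369, Ndufa2 at 0.696, Ndufs7 at 0.716, Ndufa13 at 0.727, Cox6a2 at 0.778, Cox7a1 and Cox6a1 at 0.789 and Atp5g1 at 0.796, and Ndufb4 was above it at 1.43.

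**Figure D4:**
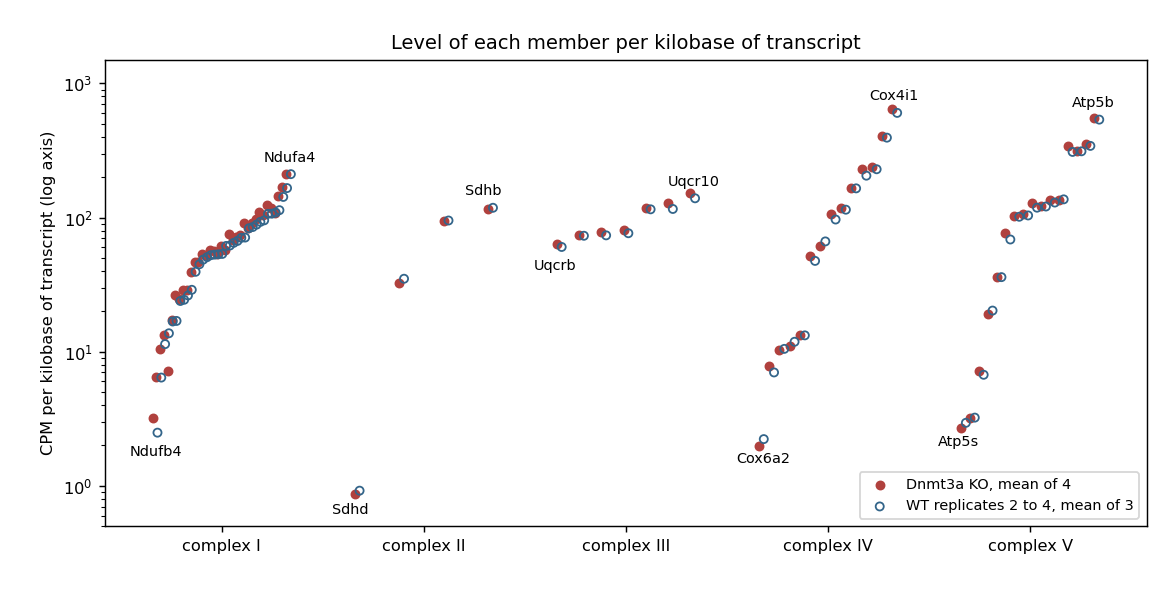
CPM per kilobase of transcript on a log axis for the 77 members, ordered by level within each complex, as the mean of 4 Dnmt3a KO libraries (filled) and of WT replicates 2 to 4 (open). The filled and open points of most genes lie close together, but Ndufs5 is at 7.21 in KO, against 16.8 in WT replicates 2 to 4. Sdhd, Cox6a2, Atp5s and Ndufb4 are lowest in their complexes.

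The 3 members nearest above the limit of 100 counts were Sdhd (157), Cox6a2 (217) and Ndufb4 (369). Of the 8 symbols under it, Atp5g2 came nearest with 90 counts, followed by Cox6b2 with 53, Ndufa4l2 with 23 and Cox4i2 with 22. The others had far fewer, Cox8b 7, Uqcr11 2, Cox7b2 1 and Cox8c 0. Atp5g2, a further c subunit gene, had 0.526, 0.535, 0.473 and 0.683 CPM in KO, against 0.636, 0.699, 0.715 and 0.726 CPM in WT, and 87.4% of its 50-base stretches occur in other genes. Cox6b2, known from testis, had 0.226, 0.3895, 0.788 and 0.399 CPM in KO, against 0, 0.381, 0.477 and 0.3803 CPM in WT.
Ndufa4l2, a relative of Ndufa4 known to be induced in hypoxia, had 2, 4, 7 and 10 counts in KO replicates 1 to 4, against 0 counts in every WT library. Set against a floor of 3 counts over the 4 WT libraries together (0.0391 CPM), its KO level of 0.356 CPM was 9.11-fold that floor. This ratio leaves out the spread of the few KO counts and is not a lower bound. Ndufa4l2 failed the filter on low counts, and without that filter its adjusted p was 0.0342 (edgeR), where 1.82% of 21980 genes were called. It entered that fit only through its KO reads, so this p is not independent support for a difference. DESeq2 gave an unadjusted p of 0.000254 and no adjusted p. These are 23 reads in all, and 2.9% of the exon bases of the gene lie in the neighbouring gene Shmt2.

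The members' excess in WT replicate 1 went with GC content and transcript length over all genes. WT replicate 1 was the highest of the 8 libraries for 61 of 77 members. It lay above the mean of the other WT libraries for 70 of 77, by a median of 1.47-fold, and by more than 0.5 log2 units for 55.8% of members, against 19.5% of all tested genes. By complex the median log2 difference was 0.64 in I, 0.21 in II, 0.55 in III, 0.58 in IV and 0.48 in V. Members had a median GC content of 51.0%, against 50.2% over all tested genes, and a median transcript length of 875 bases, against 2931 bases. The 38 GC-rich members had a median of 0.74 log2 units in WT replicate 1 and the 39 GC-poor members one of 0.34. Across the 77 members the difference had a Spearman rho of 0.63 with GC content and -0.33 with length, and across all genes 0.67 and -0.36; genes of 1 library are not independent, and these values are descriptions. A trend on length and GC fitted over all genes took up 0.24 of the members' median of 0.55, and 0.30 was left. KO replicate 2 ran the other way, with a Spearman rho with GC content of -0.59 across members and -0.60 across all genes. With each library's trend removed, the complex medians between KO and WT were -0.13, -0.15, -0.06, -0.14 and -0.09 in I to V. What set WT replicate 1 apart was not tested.

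**Figure D5:**
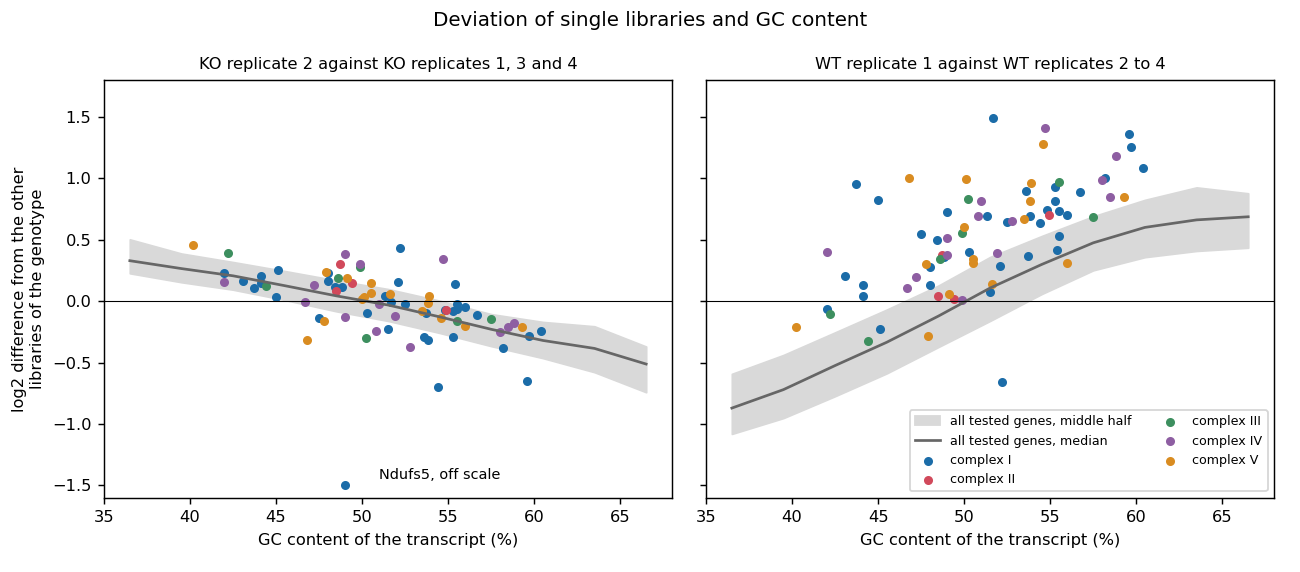
Each point is a member, with the GC content of its transcript across and the log2 difference of 1 library from the other libraries of its genotype upwards, for KO replicate 2 (left) and WT replicate 1 (right); the grey line and band are the median and the range between the quartiles of all tested genes. In WT replicate 1 the members rise with GC content and most lie above the grey line, and in KO replicate 2 they fall with it; Ndufs5 is off the scale on the left.

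Among genes that work beside the chain none was called with all libraries, against 1.61% of all tested genes, and 1 was called without WT replicate 1, against 3.82%. The genotypes did not overlap for 0 of 18 electron carriers, 2 of 47 assembly factors, 1 of 17 citric acid cycle genes and 2 of 12 regulators, against 9.41% of all tested genes. Of electron carriers and their makers, such as cytochrome c and the ubiquinone pathway, 0 of 18 tested were called, with a median log2 fold change of -0.08 with all libraries and 0.0050 without WT replicate 1. Among these, log2 fold changes ran from -0.37 for Etfb, of the electron transfer flavoprotein, to 0.72 for Cycs, cytochrome c, at 2.44 ± 0.58 CPM in KO, against 1.48 ± 0.55 CPM in WT. The list also holds Cyc1, cytochrome c1, a subunit of complex III that the symbol rule leaves out of the members. Cyc1 had 105 ± 8.61 CPM in KO, against 118 ± 28.1 CPM in WT. Of assembly factors, which build the complexes, 0 of 47 were called, with medians of -0.04 and 0.02. They ran from -0.55 for Nubpl, which delivers iron-sulfur clusters to complex I, to 0.36 for Acn9, an older symbol of Sdhaf3. Nubpl had 3.91, 7.93, 6.94 and 7.003 CPM in KO, against 12.01, 8.26, 8.76 and 8.99 CPM in WT, with every KO library below every WT library, an unadjusted p of 0.0290 and an adjusted p of 0.316 (edgeR). Of citric acid cycle genes, 0 of 17 were called, with medians of 0.01 and 0.0048. They ran from -0.35 for Idh2 to 0.13 for Idh3a. Of chain regulators 0 of 12 were called with all libraries and 1 without WT replicate 1, Nr1d1, the heme receptor Rev-erb alpha that represses metabolic genes. Nr1d1 had 30.1, 19.04, 22.8 and 22.9 CPM in KO, against 16.6, 16.02, 10.5 and 10.2 CPM in WT. Every KO library was above every WT library. Its log2 fold change was 0.84 ± 0.20 with an adjusted p of 0.0702 (edgeR), and 0.97 with an adjusted p of 0.00720 without WT replicate 1. At the other end of the regulators was the coactivator Ppargc1b, at -0.54 with all libraries and -0.08 without WT replicate 1.

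Cytosolic ribosomal proteins shared the excess in WT replicate 1. Their median log2 difference there was 0.64, above the mean of the other WT libraries for 70 of 83 tested genes, against 0.32 for electron carriers, 0.21 for assembly factors, 0.06 for the citric acid cycle and -0.01 for regulators. Between genotypes the ribosomal proteins had a median log2 fold change of -0.09 with all libraries and 0.11 without WT replicate 1. Rps4y2 was the 1 gene called of 83 tested, where 1.61% of all tested genes were called. It had 24.9, 18.7, 25.9 and 22.7 CPM in KO, against 13.4, 6.67, 4.05 and 6.22 CPM in WT (log2 fold change 1.61 ± 0.29, edgeR adjusted p 0.0181). Among marker lists, 5 of 12 tested neutrophil markers were called higher in KO and 0 of 12 macrophage markers were called, against 1.61% of all tested genes. The neutrophil markers had sums of 736.8 to 893.5 CPM in KO, against 293 to 437 CPM in WT. Without WT replicate 1 there were 6 neutrophil markers and 1 macrophage marker called, against 3.82% of all tested genes. That macrophage marker was Lyz2, the lysozyme gene. Lyz2 had 6251, 7841, 7656 and 9045 CPM in KO, against 6389, 5596, 5236 and 5254 CPM in WT, with log2 fold changes of 0.45 with all libraries (adjusted p 0.112, edgeR) and 0.53 without WT replicate 1 (adjusted p 0.0160). The called neutrophil markers with the smallest adjusted p were S100a9, S100a8 and Mmp8, with log2 fold changes of 1.10, 1.15 and 1.28. Itga2b was called higher in KO among 3 tested erythroid and megakaryocyte markers. Dendritic cell, stromal and lymphoid markers had 0 called of 7, 3 and 2 tested, and sums of 106 to 140.5, 11.5 to 18.3 and 1.66 to 3.86 CPM in KO, against 78.2 to 120.1, 6.10 to 11.1 and 1.14 to 2.32 CPM in WT. The part of these cells in the chain's levels was not tested.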

How the data were processed

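Poly(A) RNA of 4 Dnmt3a KO and 4 WT macrophage cultures was sequenced. The submitters' processing notes name Trimmomatic 0.39, STAR 2.7.0a, featureCounts and the build mm10. How the counting was set up is not given in the sources used here. As per-gene input, the authors deposited raw read counts for each symbol, and these were tested. The authors' own comparison table was deposited too, with a mean normalised signal, a log2 fold change (WT over KO), a test score, p-values and adjusted p-values per gene; only values named as the authors' come from it.

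Counts were filtered (filterByExpr, minimum 10), normalised by TMM and compared between genotypes by edgeR's quasi-likelihood test (edgeR 4.0.16, R 4.3.3), with Benjamini-Hochberg adjustment over all 12507 tested genes. CPM divides counts by TMM-scaled library sizes. Standard errors were taken as the absolute log2 fold change divided by the root of the F statistic. Other settings tried were scaling by RLE, by upper quartiles or not at all, no filter or one of 1 CPM in 4 libraries, other tools (DESeq2 1.42.0; limma-voom in limma 3.58.1), a replicate block, removal of a loess trend on length and GC in each library (span 0.3), omission of each library, a minimum log2 size of 0.5 for calls, and other limits of counts. Summing Ndufs5 with BC002163, and DESeq2 and limma-voom without WT replicate 1, were added after the data were seen. Transcript length, GC content, exon overlap and shared 50-base stretches came from GENCODE M21 principal transcripts, which covered 97.5% of tested genes; promoters came from RefSeq (GRCm38.p6). The fits were tested on simulated counts.

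Every member is named except 1 of complex I, which is counted but not reported here. Each library's values are given for members called, the highest and lowest fold change of each complex, fixed core subunits, isoform partners that are both members, and genes next to the limit of counts; in other lists, called genes or the extremes. The members and lists were chosen with earlier results of these data known.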

Additional observations from a re-analysis of the deposited data

Results flagged for a closer look

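A single library lay far from the other libraries of its genotype for 8 members' or complexes' levels in WT and 1 in Dnmt3a KO, of 60 groups of 4 examined. A group was marked when the gap between its extreme library and the next, divided by the whole range, passed Dixon's 95% critical value, which chance alone does for about 1 in 20 groups. In KO the mark fell on Ndufs7, where replicate 2 was lowest (ratio 0.869). In WT it was always replicate 1 that was highest: in the summed level of complex IV (0.845), Cox4i1 (0.893), Cox6a1 (0.856), Cox7a1 (0.84), Ndufs7 (0.884), Ndufv1 (0.854), Sdhb (0.84) and Uqcrq (0.897). These ratios describe the same library and are not independent of each other.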

How the results depend on the processing

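Called members numbered 0 in all settings except 2: 1 with no filter (Ndufs5) and 1 with the replicate block and the length and GC trend together (Ndufa13, adjusted p 0.0499); leaving out single libraries gave 0 each time. Members whose genotypes did not overlap numbered 1 to 3 with a library left out: 2 without WT replicate 1, 2 without WT replicate 2, 3 without WT replicate 3 and 2 without KO replicate 3, always with Ndufs5 among them. The share of all tested genes that did not overlap was then 11.8% to 14.9%, against 1.30% to 3.90% of members. All genes called, 201 in the main test, came to 399 with no filter, 514 with DESeq2, 499 with the trend and 683 with block and trend, and to 103 to 484 with a library left out (484 omitting WT replicate 1, 103 omitting WT replicate 2, 120 omitting KO replicate 1, 126 omitting KO replicate 2 and 118 omitting KO replicate 4). The replicate block alone called 260 genes and 0 members. At an unadjusted p under 0.05 (edgeR) there were 2 members with the block, 4 with the trend and 8 with block and trend. There were 4 with no filter and 1 in the main test. The matching shares of all genes are not given here for the block and trend settings. Same-numbered libraries correlated at 0.253, 0.284, 0.066 and -0.019 for replicates 1 to 4. KO replicates 1, 2 and 3 correlated best with the WT library of their own number. KO replicate 4 correlated best with WT replicate 1 (0.099), and WT replicates 3 and 4 with KO replicate 2 (0.148 and 0.269). Whether same-numbered libraries were prepared together was not tested. The medians of complexes I, III, IV and V changed sign without WT replicate 1. Every move was below the SD between libraries (0.237, 0.13, 0.194, 0.218 and 0.176 log2 units for I to V), but WT replicate 1 itself widens that SD, so this says nothing about stability. With a library left out the medians ranged from -0.23 to 0.02 in I, -0.22 to -0.05 in II, -0.13 to 0.08 in III, -0.20 to 0.06 in IV and -0.16 to 0.04 in V.

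Of 451 log2 fold changes of 25 members under these settings, 30 changed sign, all uncalled, 13 of them without WT replicate 1. With a library left out the values ranged from -0.086 to 0.051 for Atp5a1, -0.044 to 0.037 for Atp5b, -0.019 to 0.080 for Atp5c1, -0.14 to 0.0047 for Atp5g3, -0.34 to 0.089 for Cox4i1, -0.19 to 0.019 for Cox5a, -0.48 to 0.057 for Cox6a1, -0.50 to 0.18 for Cox7a1, -0.16 to 0.0024 for Cox7a2, -0.040 to 0.15 for Cox7b, -0.011 to 0.11 for Ndufs1, -0.26 to 0.13 for Ndufv1, -0.057 to 0.0045 for Sdha, -0.24 to 0.080 for Sdhd, -0.27 to 0.025 for Uqcrc1, -0.13 to 0.022 for Uqcrfs1 and -0.28 to 0.073 for Uqcrq. With the length and GC trend they were -0.039 for Atp5c1, -0.054 for Ndufs1 and -0.17 for Cox7b, with block and trend -0.038 for Atp5c1, -0.054 for Ndufs1 and -0.13 for Cox7b, and with DESeq2 0.00029 for Atp5b. Ndufs5 was between -1.71 and -1.04 with a library left out, at -1.67 with the block (adjusted p 0.166), at -1.67 with block and trend (adjusted p 0.0689) and at -2.31 with limma-voom; its adjusted p ran from 0.0386 to 0.443 over the planned settings. The causes were not tested. Members with few counts, such as Sdhd, Cox6a2 and Ndufb4, had SEs of 0.27 to 0.36 log2 units, which limits what could be called for them.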
